A study of Mus musculus with 24 samples.

Results

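Cytochrome P450 genes were followed in mouse kidney across sex and across the daily activity cycle. Members were the genes whose symbol has the form Cyp, a family number, a subfamily letter and a gene number, kept where the normalized count averaged 10 or more over the 24 libraries. Of 94 matching symbols, 5 were left out by name (Cyp24a1, Cyp27b1, Cyp2r1, Cyp7b1 and Cyp26b1), 46 of the other 89 fell below the mean, and 43 were kept. Symbols of another form, such as Cyp51 or Cyp4a12a, did not match, so no rank or sum given here covers them. At the threshold, Cyp2t4 (mean 12.5) was the lowest kept and Cyp17a1 (mean 9.65) the highest left out. A normalized count is the number of reads on a gene divided by a factor for its library.

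The study held 24 whole-kidney libraries made from 100 ng of RNA with poly A selection. Both sexes were sampled in both periods, with 6 libraries in each of the 4 groups. "Active" and "inactive" name the part of the daily cycle in whose middle the tissue was taken. The sources used here give no strain, age, clock time or treatment, nor is it stated that libraries come from separate mice, so p-values measure the spread between these libraries, which may in part be technical. The sources give no Cre, transgene or deletion for any group.

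Cytochrome P450 enzymes hold a haem group and use molecular oxygen and electrons to hydroxylate or epoxidise fats, sterols, retinoids and foreign compounds. Those of the endoplasmic reticulum take their electrons from P450 oxidoreductase or cytochrome b5, and those of mitochondria from ferredoxin. In the kidney the CYP4A enzymes hydroxylate arachidonic acid at its end, and the CYP2C and CYP2J enzymes convert it to epoxides, lipids that act on vessel tone and salt handling, and both groups are found mainly in the proximal tubule.

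Depth was similar in all groups, with 31039867 to 39302246 reads per library. The clock genes Dbp, Nr1d1 and Arntl and the sex-linked genes matched the labels in all 24 libraries. The deposited scaling left males with a higher mean total, 37904283 and 37175270 normalized counts per library in the active and inactive period, against 31319714 and 30620649 in females. Scaling all libraries to equal totals moved the median sex difference of all genes by -0.272 (active) and -0.277 (inactive) on the log2 scale, and small sex differences are to be read against that shift.

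The members together took a 2.20-fold larger share of the kidney signal in males than in females in the active period and a 2.27-fold larger share in the inactive period. The 43 members summed to 151459 ± 13688 normalized counts (SD, n = 6) in females of the active period, 140793 ± 12177 in females of the inactive period, 402648 ± 26174 in males of the active period and 387488 ± 15190.0 in males of the inactive period. As a share of all signal, which does not depend on the scaling, they made up 0.483%, 0.459%, 1.06% and 1.04% in the same order. Every male library (lowest 0.987%) lay above every female library (highest 0.524%), and no test was made of this sum. Most of the excess lay in 3 genes. Without Cyp4b1, Cyp2e1 and Cyp2j13 the share of the other 40 members was 1.01 and 1.08 times as large in males in the active and inactive period. Their summed normalized counts, on the deposited scaling used for the folds, were 1.23 and 1.31 times as large. The median log2 fold of all 43 members was 0.00 and -0.05. The 3 genes were chosen after their values were seen. They are not the 3 with the largest differences in counts, as Cyp2j5 stayed among the other 40. It was at 39288 in active females and 81979 in active males, against 34.2 and 22597 for Cyp2j13. Cyp4a14, also among the 40, went the other way, at 21255 in active females and 2635 in active males.

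Different members led in the 2 sexes. Per kilobase of exon, the scale on which levels of different genes can be compared, Cyp2j5 led in females with 16754 normalized counts in the active and 17306 in the inactive period. Behind it in active females came Cyp4a10 (8992), Cyp4a14 (8172), Cyp2d26 (5729) and Cyp4a31 (5469). In active males the order per kilobase was Cyp4b1 (52844), Cyp2e1 (40264), Cyp2j5 (34959), Cyp2a4 (11993) and Cyp4a10 (6893). The first 5 members by summed signal held 82.3% of the signal of all members in active males and 68.3% in active females. At the other end, 12 of the 46 genes below the mean had no read in any library, among them the adrenal enzymes Cyp11b1 and Cyp11b2, aromatase (Cyp19a1) and the bile acid enzyme Cyp7a1.

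**Figure D1:**
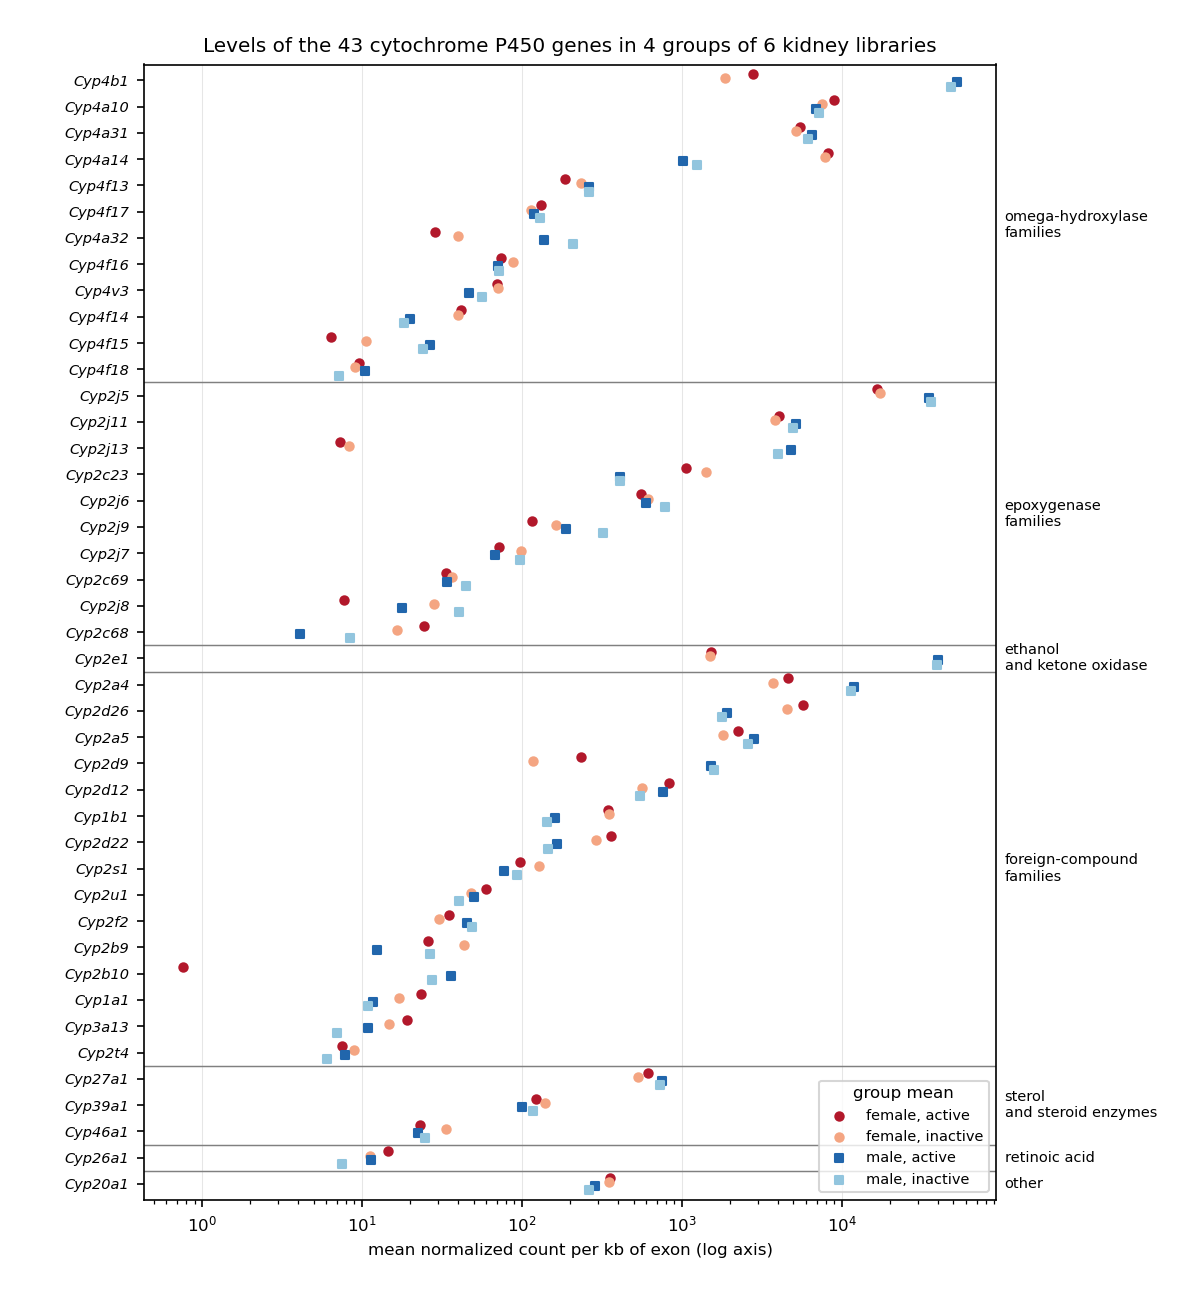
Mean normalized count per kilobase of exon (x, log axis) of the 43 members (y, grouped by role) in the 4 groups of 6 libraries, each point a group mean. Male points lie far to the right of female points for Cyp4b1, Cyp2e1 and Cyp2j13 and to the left for Cyp4a14, and Cyp2b10 has no point in inactive females because its count was 0.

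Each member was compared between the sexes in each period and between the periods in each sex, with limma on log2 of the normalized count plus 1 over 17333 genes and a Benjamini-Hochberg adjusted p under 0.05 as the threshold for a call. Values after ± are SE for a log2 fold and SD for a level, n = 6 in every group. Between the sexes in the active period 14 members were higher in males and 15 lower, against 30.1% and 30.5% of all genes. In the inactive period 15 were higher and 14 lower, against 27.9% and 27.8%. These shares of the 43 members are close to those of all genes in both directions. Larger differences were counted separately. There were 10 members called at least 2-fold higher in males in the active period, where 4.24% of all genes were, and 8 at least 2-fold lower, against 5.85%. In the inactive period these counts were 9 (3.48% of all genes) and 7 (5.2%). The groups did not overlap in 21 members in the active and 19 in the inactive period, against 36.3% and 32.3% of all genes. The median absolute log2 fold of the members was 0.57 and 0.71 in the 2 periods, and 0.37 and 0.33 over all genes. With equal totals the split of higher to lower calls changed from 14 to 15 into 12 to 19 in the active period and from 15 to 14 into 11 to 20 in the inactive period, and upper quartile scaling gave 18 to 11 in the inactive period. In all, 12 members were higher in males in both periods, 13 lower in both and 10 called in neither. The shares of all genes called in both periods or in neither were not counted, so these numbers are not read as particular to the members.

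**Figure D2:**
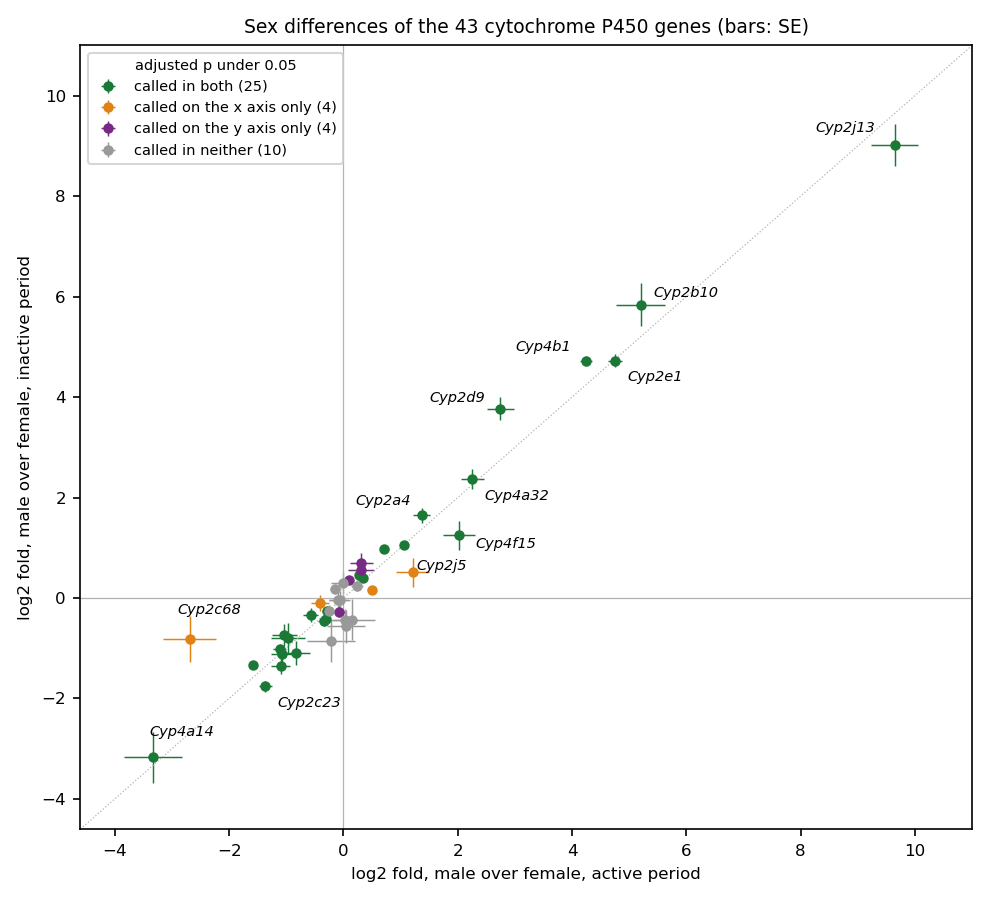
Log2 fold of males over females in the active period (x) and in the inactive period (y) for the 43 members, with SE bars, coloured by whether the adjusted p was under 0.05. Members called in both periods have the same sign in both, from Cyp4a14 near -3 to Cyp2j13 above 9, and the y value of Cyp2b10 depends on the offset because inactive females had no read.

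The omega-hydroxylase families (Cyp4), with 12 members of 17 matching symbols, held the member most abundant per kilobase in males and the member with the largest female excess. Cyp4b1 (ENSMUSG00000028713), which hydroxylates fatty acids and activates furan toxins, ran from 5345 to 7791 (median 6094) in active females and from 3032 to 4925 (median 4371) in inactive females. In males it ran from 110287 to 136328 (median 113673) in the active and from 98286 to 117063 (median 109892) in the inactive period. Every male library was thus more than 10 times any female library. The log2 fold was 4.24 ± 0.10 in the active (adjusted p = 1.14e-20 by limma) and 4.71 ± 0.10 in the inactive period (adjusted p = 1.36e-21).

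Cyp4a14 (ENSMUSG00000028715), a fatty acid hydroxylase known as a target of the receptor PPAR alpha, had the opposite bias. It ran from 13225 to 24608 (median 23055) in active and from 15695 to 28944 (median 19341) in inactive females, and from 771 to 5371 (median 1823) in active and from 997 to 8369.6 (median 1509) in inactive males. The groups did not overlap in either period. The log2 fold was -3.33 ± 0.51 (adjusted p = 9.95e-06 by limma) and -3.17 ± 0.51 (adjusted p = 2.17e-05). Its SE was large and males differed widely among themselves, with a coefficient of variation of 74.3% in active and 96.8% in inactive males, where the median over all member groups with a mean of at least 50 was 13.9%.

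The male spread of Cyp4a14 was shared by Cyp4a10 and Cyp4a31. Male libraries 27 and 28 (active) and 31 and 34 (inactive) had 4816, 5371, 6015 and 8369.6 normalized counts of Cyp4a14, where the other 8 male libraries had 771 to 1989.5. The same 4 libraries held the highest Cyp4a10 of their groups, 18287, 18808, 19396 and 21041, the others lying between 10822 and 14000.3. For Cyp4a31 they had 19877, 19523, 18305 and 17638, the others 11966 to 15898. The 3 genes follow each other among the members on chromosome 4. Cyp4a10 and Cyp4a31 share 50-base stretches with other genes, most with Cyp4a32 (24.45% and 14.67%). Sharing between Cyp4a10 and Cyp4a31 themselves is not given here. Cyp4a14 shares 0.235% of its 50-base stretches with any other gene. The related Cyp4a32 did not follow the 3 genes. It had 211, 260.0, 275 and 332 in the 4 libraries. The other active males had 118 to 264 and the other inactive males 267 to 404. Active libraries 27 and 28 were also the lowest of their group for Cyp2a5 (3937 and 4728) and Cyp2d9 (3071 and 3356), while inactive libraries 31 and 34 were not the lowest pair for either gene. This was noticed in the values and not tested.

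**Figure D3:**
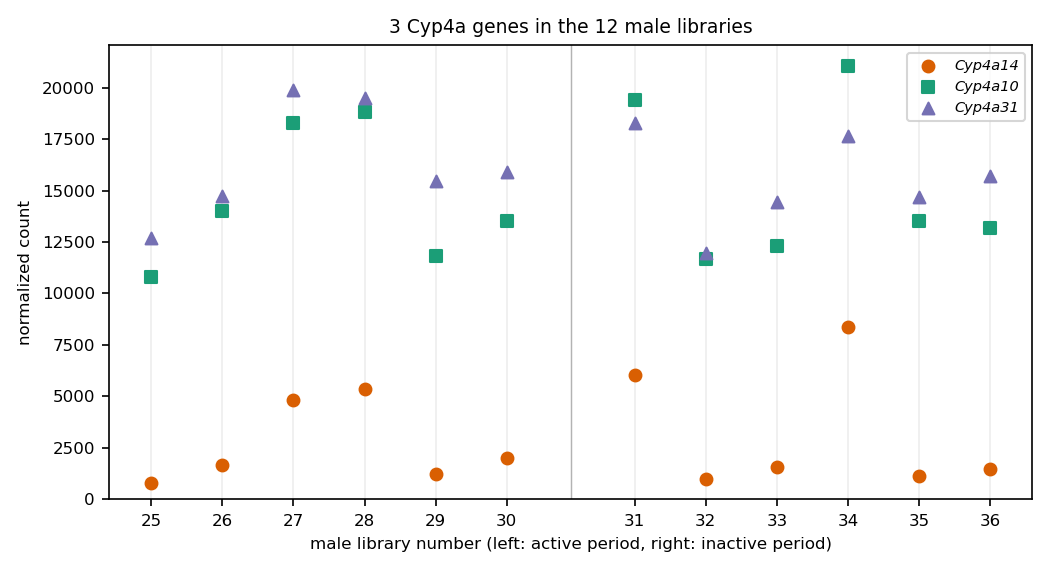
Normalized counts (y) of Cyp4a14, Cyp4a10 and Cyp4a31 in the 12 male libraries, numbered as in the titles (x, active on the left, inactive on the right). Libraries 27, 28, 31 and 34 are the highest of their groups for all 3 genes.

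Among the other Cyp4 members the sexes differed less. Cyp4a32 rose in males with a log2 fold of 2.25 ± 0.20 in the active (adjusted p = 5.84e-11 by limma) and 2.38 ± 0.20 in the inactive period, from levels of 44.3 ± 14.2 and 61.5 ± 14.7 in females to 213 ± 52.4 and 321 ± 59.8 in males. Of its 50-base stretches, 43.8% occur in transcripts of other genes, chiefly Cyp4a10, which is far more abundant, so its level is uncertain. Cyp4f15 was also higher in males, by 2.02 ± 0.29 and 1.25 ± 0.29, on low levels of 14.6 and 24.3 in females and 60.8 and 54.9 in males. Its relative Cyp4f14, a leukotriene hydroxylase, was lower in males with a log2 fold of -1.07 ± 0.19 (adjusted p = 1.20e-05) and -1.12 ± 0.19, and Cyp4v3, the counterpart of the gene mutated in Bietti crystalline dystrophy, was lower with -0.57 ± 0.14 and -0.34 ± 0.14. The inactive call of Cyp4v3 was lost without female library 31, 32, 34 or 35 or male library 32, 33 or 36, with no filter and with upper quartile scaling (adjusted p up to 0.117 by limma). Cyp4f13 was called higher in males in the active period only (0.50, against 0.16 in the inactive), Cyp4a10 lower in the active period only (-0.41 against -0.10) and Cyp4f16 lower in the inactive period only (-0.27 against -0.08). The difference between the periods did not pass the test for any of these 3. The Cyp4a10 call was lost without active female library 28 or active male library 25 or 29 (adjusted p up to 0.0715 by limma), and the Cyp4f16 call without inactive female library 31, 33 or 35 or male library 32, 33, 35 or 36 (up to 0.174). No filter and upper quartile scaling also ended both calls. Cyp4a31, Cyp4f17 and Cyp4f18 were called in neither period. Cyp4a10 shares 29.8% and Cyp4a31 20.6% of their 50-base stretches with other genes.

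The epoxygenase families (Cyp2c and Cyp2j), 10 members of 23 matching symbols, held the widest sex difference of all members. Cyp2j13 (ENSMUSG00000028571) ran from 5.33 to 56.8 (median 36) normalized counts in active and from 14.7 to 71.7 (median 34.3) in inactive females, and from 19451 to 26482 (median 22229) in active and from 16462 to 20822 (median 19348) in inactive males. It was a trace transcript in each female library and among the abundant P450 transcripts in each male library. Its means were 661-fold and 482-fold apart, and the log2 folds were 9.65 ± 0.42 (adjusted p = 3.31e-14 by limma) and 9.02 ± 0.42 (adjusted p = 1.32e-13).

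Cyp2j5 (ENSMUSG00000052520), an arachidonic acid epoxygenase of the proximal tubule, was abundant in both sexes. It ran from 33369 to 42621 (median 40496) in active and from 35616 to 43747 (median 41413) in inactive females, and from 76971 to 88363 (median 81632) in active and from 79799 to 90253 (median 85080.5) in inactive males. All males lay above all females, by 1.06 ± 0.06 and 1.06 ± 0.06 on the log2 scale (adjusted p = 3.98e-16 and 5.76e-16 by limma), which with equal totals became 0.79 and 0.78. Cyp2j9 was higher in males by 0.72 ± 0.08 and 0.97 ± 0.08. Cyp2j11 was higher by 0.35 ± 0.07 and 0.39 ± 0.07, calls that equal totals removed (adjusted p = 0.224 and 0.0769). Cyp2j8 was called in the active period only (1.21 against 0.51), and Cyp2j6 in the inactive period only (0.35 against 0.11), a call also lost with equal totals, under which Cyp2j6 was instead lower in active males (-0.17, adjusted p = 0.00656). Cyp2j7 did not differ past the threshold in either period, with 95% intervals of -0.41 to 0.23 and -0.37 to 0.27.

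Of the 3 Cyp2c members, Cyp2c23 was lower in males in both periods and Cyp2c68 in the active period. Cyp2c23 (ENSMUSG00000025197), known as a renal epoxygenase, ran from 1939.9 to 3094 (median 2201) in active and from 2474 to 3451 (median 3159.6) in inactive females, and from 695 to 1044 (median 943) in active and from 824 to 1039 (median 881) in inactive males. The female values lay above all male values of the same period, with log2 folds of -1.37 ± 0.11 (adjusted p = 1.99e-10 by limma) and -1.76 ± 0.11 (adjusted p = 2.66e-12). Cyp2c68 was lower in active males (-2.69 ± 0.46) at 7.06 ± 7.10 against 42.2 ± 19.7 in active females, and Cyp2c69 passed in neither period. Both are uncertain, because 43.3% and 54.3% of their 50-base stretches occur in other genes, mostly Cyp2c40.

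Cyp2e1 (ENSMUSG00000025479), which oxidises ethanol and acetone and activates paracetamol, was the second most abundant member per kilobase in males. It ran from 2269 to 4522 (median 3240.2) in active and from 2242 to 3758 (median 3316) in inactive females, and from 81505 to 91726 (median 86414) in active and from 75882 to 90227 (median 84819.5) in inactive males. The means were 26.5-fold and 26.2-fold apart with no overlap, log2 folds 4.76 ± 0.13 and 4.73 ± 0.13 (adjusted p = 8.92e-19 and 1.00e-18 by limma). Between the periods it did not pass the test in either sex, with 95% intervals of the log2 fold of -0.24 to 0.25 for females and -0.21 to 0.29 for males.

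The foreign-compound families (Cyp1, Cyp3 and the remaining Cyp2 genes) had 15 members of 34 matching symbols. In the active period 3 were higher and 7 lower in males, against 30.1% and 30.5% of all genes, and in the inactive period 5 were higher and 7 lower, against 27.9% and 27.8%. Cyp2d9 (ENSMUSG00000068086), known as a male testosterone hydroxylase of mouse liver, ran from 384 to 969 (median 566) in active and from 250.1 to 509.7 (median 278) in inactive females, and from 3071 to 5842 (median 3742) in active and from 3489.8 to 6011 (median 3707) in inactive males. Males lay above females throughout, with log2 folds of 2.75 ± 0.23 and 3.77 ± 0.23 (adjusted p = 1.98e-09 and 1.69e-11 by limma). Cyp2d26, of the same cluster on chromosome 15, was the reverse, running from 9450.5 to 12781 (median 9725) in active and from 7549 to 9416 (median 7817) in inactive females, and from 3158 to 3868 (median 3383) in active and from 2952 to 3584 (median 3227) in inactive males. There was again no overlap, and the log2 folds of males over females were -1.57 ± 0.07 (adjusted p = 1.99e-18) and -1.33 ± 0.07 (adjusted p = 1.39e-16). Cyp2d22, also of that cluster, was lower in males with a log2 fold of -1.12 ± 0.11 and -1.02 ± 0.11, and Cyp2d12 passed in neither period.

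The steroid and coumarin hydroxylases Cyp2a4 and Cyp2a5 share 38.0% and 37.0% of their 50-base stretches with other genes, mostly with each other, so the split of reads between them is uncertain. Cyp2a4 was at 8069 ± 1319 and 6455 ± 1422 in active and inactive females and 20843 ± 3597 and 19796 ± 1703 in males, log2 folds 1.37 ± 0.15 and 1.65 ± 0.15 (adjusted p = 4.81e-08 and 3.63e-09 by limma). Cyp2a5 was called in the inactive period only, at 0.56 ± 0.23 against 0.30 ± 0.23 in the active, and that call was weak. It was lost without inactive female library 31, 32 or 34 or male library 32, 34, 35 or 36, with no filter, equal totals, only the 2 groups or the replicate block, and by edgeR (adjusted p up to 0.311).

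The Cyp2b pair, of which Cyp2b10 is known in liver as a target of the drug-sensing receptor CAR, had opposite sex differences at low counts. Cyp2b10 (ENSMUSG00000030483) had 412 reads over the 6 active and 332 over the 6 inactive male libraries, 10 over the active females and 0 over the inactive females. It reached the mean of 10 through the males alone, so it had to differ between the sexes and its 2 calls, which stand among the counts of members higher in males, support nothing. All 24 of its library counts were even, as were 72.8% of all counts from 1 to 19, so reads were taken in pairs for the limits that follow. Normalized counts ran from 39.3 to 127 (median 66.8) in active and from 37.0 to 93.5 (median 54.4) in inactive males. In active females the highest library had 5.83. Males were 47.5-fold higher in the active period (95% exact Poisson interval of the 5 female read pairs 20.4 to 146, counting error only) and at least 65.7-fold higher in the inactive period, taking 3 read pairs over the 6 female libraries as the limit that 0 allows. Active female library 30 held 6 of the 10 reads, and without it the active fold was 100.5. Cyp2b9 was lower in males, at 23.4 ± 6.89 against 48.5 ± 11.7 in the active and 49.9 ± 16.2 against 81.4 ± 11.5 in the inactive period, log2 folds -1.03 ± 0.22 (adjusted p = 1.81e-04) and -0.74 ± 0.22 (adjusted p = 0.00529).

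Cyp1b1 and Cyp1a1, known as targets of the aryl hydrocarbon receptor, were lower in males. Cyp1b1, which oxidises polycyclic hydrocarbons and oestradiol, was at 2010.0 ± 311 and 2064 ± 270.5 in active and inactive females and 937 ± 111 and 843 ± 313 in males, log2 folds -1.09 ± 0.17 and -1.35 ± 0.17 (adjusted p = 7.56e-06 and 5.50e-07 by limma). Cyp1a1 was lower with a log2 fold of -0.96 ± 0.29 and -0.80 ± 0.29 on group means of 30.3 to 65.5. Its inactive call was lost without inactive female library 36 or male library 35 or 36, with only the 2 groups, and by edgeR (adjusted p up to 0.0917). The steroid and drug hydroxylase Cyp3a13 was lower with a log2 fold of -0.82 ± 0.24 and -1.10 ± 0.24, and Cyp2s1 with -0.33 ± 0.10 and -0.46 ± 0.10. Cyp2f2, which activates naphthalene, was called higher in males in the inactive period only (0.71 against 0.32), and not with equal totals. Cyp2u1 and Cyp2t4 did not pass in either period.

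The sterol group kept 3 members of 11. Cyp27a1, the mitochondrial sterol side-chain hydroxylase, was at 1339 ± 113 and 1152 ± 96.6 in active and inactive females and 1633 ± 199 and 1583 ± 116 in males, log2 folds 0.28 ± 0.07 and 0.46 ± 0.07 (adjusted p = 0.00128 and 3.14e-06 by limma). With equal totals these became 0.01, no longer called, and 0.18. Cyp39a1, an oxysterol hydroxylase, was lower in males with a log2 fold of -0.28 ± 0.08 and -0.25 ± 0.08, the second lost with upper quartile scaling (adjusted p = 0.102 by limma), and Cyp46a1, the cholesterol hydroxylase known from brain, passed in neither period. The retinoic acid hydroxylase Cyp26a1, with group means of 14.9 to 28.9, passed in no comparison, and Cyp20a1, whose substrate is not established, was lower in males with a log2 fold of -0.31 ± 0.07 and -0.41 ± 0.07.

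Between the periods fewer members differed, and by less. In females 4 members were higher in the active period, against 7.97% of all genes, and 8 lower, against 6.98%. In males 1 was higher (8.43% of all genes) and 6 lower (6.95%). Of the calls at least 2-fold in size, 1 was in females, where 0.629% of all genes fell that far, and 2 in males, against 0.762%. The groups did not overlap in 6 members in females (7.83% of all genes) and 3 in males (4.29%). The median absolute log2 fold of the members was 0.32 in females and 0.21 in males, and 0.14 and 0.15 over all genes. In females upper quartile scaling changed the split of higher to lower from 4 to 8 into 6 to 6, and in males upper quartile scaling and equal totals changed it from 1 to 6 into 0 to 7. In males without inactive library 36 only 4 members were called, all lower, and with no filter on low counts also 4. The 2 comparisons share no library, but both use 1 estimate of the spread from all 24 libraries, so they are not independent tests. They had 4 lower calls in common, Cyp2j9, Cyp2j8, Cyp2j7 and Cyp2b9, and 28 members were called in neither sex. The shares of all genes called lower in both sexes or in neither were not counted, so these numbers are not read as particular to the members.

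**Figure D4:**
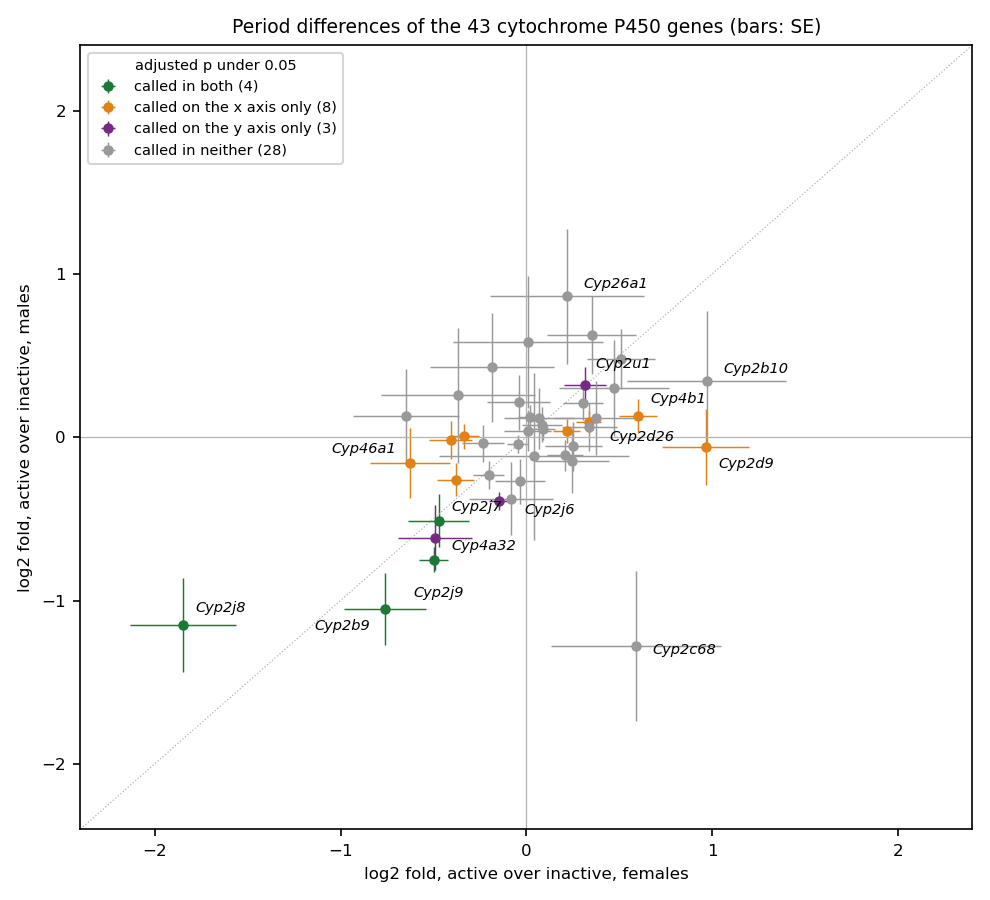
Log2 fold of the active over the inactive period in females (x) and in males (y) for the 43 members, with SE bars, coloured by whether the adjusted p was under 0.05. Members called in both sexes lie in the lower left, and most others lie within 0.5 of 0 on both axes.

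Of the 10 epoxygenase members 4 were lower in active females and 4 in active males, against 6.98% and 6.95% of all genes, and none was higher in either sex. Their median log2 fold was -0.26 in females and -0.38 in males, where the medians of all genes were 0.00 and 0.01. The promoter windows of 4 members that fell (Cyp2j9, Cyp2j8, Cyp2j6 and Cyp2b9) are shown because these genes moved in the same direction, and that of Cyp2j13 because it had the widest sex difference. Each is the 250 bases before the start in RefSeq (GRCm38.p6), 5′ to 3′ on the strand of the gene, with capitals for matches to the motifs given after them.
Cyp2j9 (chr4:96591486-96591735, minus strand): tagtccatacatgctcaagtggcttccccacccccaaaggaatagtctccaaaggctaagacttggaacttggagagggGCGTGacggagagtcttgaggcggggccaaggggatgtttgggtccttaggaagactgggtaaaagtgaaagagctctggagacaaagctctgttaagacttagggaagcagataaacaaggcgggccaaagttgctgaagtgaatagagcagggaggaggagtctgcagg
Cyp2j8 (chr4:96507398-96507647, minus strand): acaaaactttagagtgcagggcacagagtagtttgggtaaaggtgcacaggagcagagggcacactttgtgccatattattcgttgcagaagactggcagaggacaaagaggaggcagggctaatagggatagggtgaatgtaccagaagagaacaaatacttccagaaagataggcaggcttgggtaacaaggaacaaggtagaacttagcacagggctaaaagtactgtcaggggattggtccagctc
Cyp2j6 (chr4:96553652-96553901, minus strand): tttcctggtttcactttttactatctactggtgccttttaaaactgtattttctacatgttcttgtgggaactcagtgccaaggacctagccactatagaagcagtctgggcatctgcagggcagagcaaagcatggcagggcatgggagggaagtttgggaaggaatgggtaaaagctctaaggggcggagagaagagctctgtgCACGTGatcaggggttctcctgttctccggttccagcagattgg
Cyp2j13 (chr4:96077541-96077790, minus strand): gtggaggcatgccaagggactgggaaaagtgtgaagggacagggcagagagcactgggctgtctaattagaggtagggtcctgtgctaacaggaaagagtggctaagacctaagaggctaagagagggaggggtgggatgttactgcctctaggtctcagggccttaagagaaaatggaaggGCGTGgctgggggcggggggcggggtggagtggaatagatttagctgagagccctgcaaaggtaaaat
Cyp2b9 (chr7:26173159-26173408, plus strand): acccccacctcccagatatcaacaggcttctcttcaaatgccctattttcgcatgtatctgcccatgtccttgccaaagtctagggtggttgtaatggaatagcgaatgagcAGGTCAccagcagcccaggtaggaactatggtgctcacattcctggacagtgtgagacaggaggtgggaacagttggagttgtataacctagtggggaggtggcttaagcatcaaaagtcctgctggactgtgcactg

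Windows were held for 33 of the 43 members and were searched on both strands, and no match overlapped another. The E-box CACGTG, bound by the clock factors, stood in 2 of the 33 members and in 6.86% of all 27025 genes with a window (a gene with several windows was counted where any held the motif), in Cyp2j6 (at -44 to -39 from the start) and in Cyp4v3. The D-box TTANGTAA stood in none and in 2.44% of all. The STAT core TTCNNNGAA stood in 3 (Cyp2j11, Cyp4b1 and Cyp4f13) and in 8.13% of all. The nuclear receptor half-site AGGTCA stood in 4 and in 15.8% of all, at -138 to -133 in Cyp2b9, and the dioxin response core GCGTG in 11 and in 30.9% of all, at -171 to -167 in Cyp2j9 and at -68 to -64 in the window shown of Cyp2j13. The window of Cyp2j8 held none of these. A match is a run of letters and says nothing about binding.

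Cyp2j9 (ENSMUSG00000015224) was lower in each active library than in any inactive library of the same sex. It ran from 338 to 442 (median 377) in active against from 488 to 597 (median 544) in inactive females, and from 587 to 707 (median 629) in active against from 903 to 1216 (median 1081) in inactive males. The change was thus larger than the spread between libraries in both sexes. The log2 fold was -0.50 ± 0.08 in females (adjusted p = 2.94e-05 by limma) and -0.75 ± 0.08 in males (adjusted p = 1.50e-07), and no 50-base stretch of its transcripts occurs in another gene.

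Cyp2j8 had the largest log2 fold of the called members in both sexes, on few counts. It ran from 4.67 to 20.5 (median 10.9) in active against from 29.4 to 69.2 (median 39.4) in inactive females, and from 17.0 to 34.9 (median 28.6) against from 33.5 to 73.6 (median 67.4) in males, where active and inactive values overlapped. The log2 fold was -1.85 ± 0.29 in females (adjusted p = 2.88e-05 by limma) and -1.15 ± 0.29 in males (adjusted p = 0.00712). Cyp2j7 fell by 0.47 ± 0.16 in females (adjusted p = 0.0463) and 0.51 ± 0.16 in males (adjusted p = 0.0303) on the log2 scale, close to the threshold. The female call was lost without any of 13 single libraries, of both sexes, with no filter and with upper quartile scaling. The male call was lost without any of 6 male libraries, with no filter and with only the 2 groups. Log2 folds lay between -0.54 and -0.38 and between -0.63 and -0.44 over all alternatives.

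Cyp2j6 passed the test in males and not in females. It ran from 2019 to 2237 (median 2162) in active against from 2423 to 3256 (median 2861) in inactive males without overlap, log2 fold -0.39 ± 0.06 (adjusted p = 2.12e-05 by limma), and from 1881 to 2062 (median 2021) against from 2021 to 2331 (median 2237) in females, -0.15 ± 0.06 (adjusted p = 0.0788). The difference between the sexes in this change was -0.25 ± 0.08 and did not pass (adjusted p = 0.0844). Cyp2c23 fell in females, from 3049 ± 422 to 2311 ± 438, log2 fold -0.41 ± 0.11 (adjusted p = 0.0155), and was at 894 ± 76.2 and 891 ± 138 in inactive and active males. Cyp2j5 and Cyp2j11 passed in neither sex. For Cyp2j5 the 95% intervals were -0.16 to 0.06 in females and -0.15 to 0.07 in males.

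Cyp2b9, the low foreign-compound gene called in both sexes, ran from 35.5 to 62.2 (median 48.7) in active against from 65.6 to 93.4 (median 82.4) in inactive females and from 14.5 to 34.9 (median 23.6) against from 31 to 77.4 (median 44.3) in males. Periods did not overlap in females and did in males. Its log2 fold was -0.76 ± 0.22 (adjusted p = 0.0174 by limma) and -1.05 ± 0.22 (adjusted p = 0.00175). Cyp2s1 fell in females by 0.38 ± 0.10 (adjusted p = 0.00869), at 484 ± 52.9 against 632 ± 75.9. In males it was at 383 ± 34.4 against 462 ± 77.7, -0.26 ± 0.10 (adjusted p = 0.0775).

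**Figure D5:**
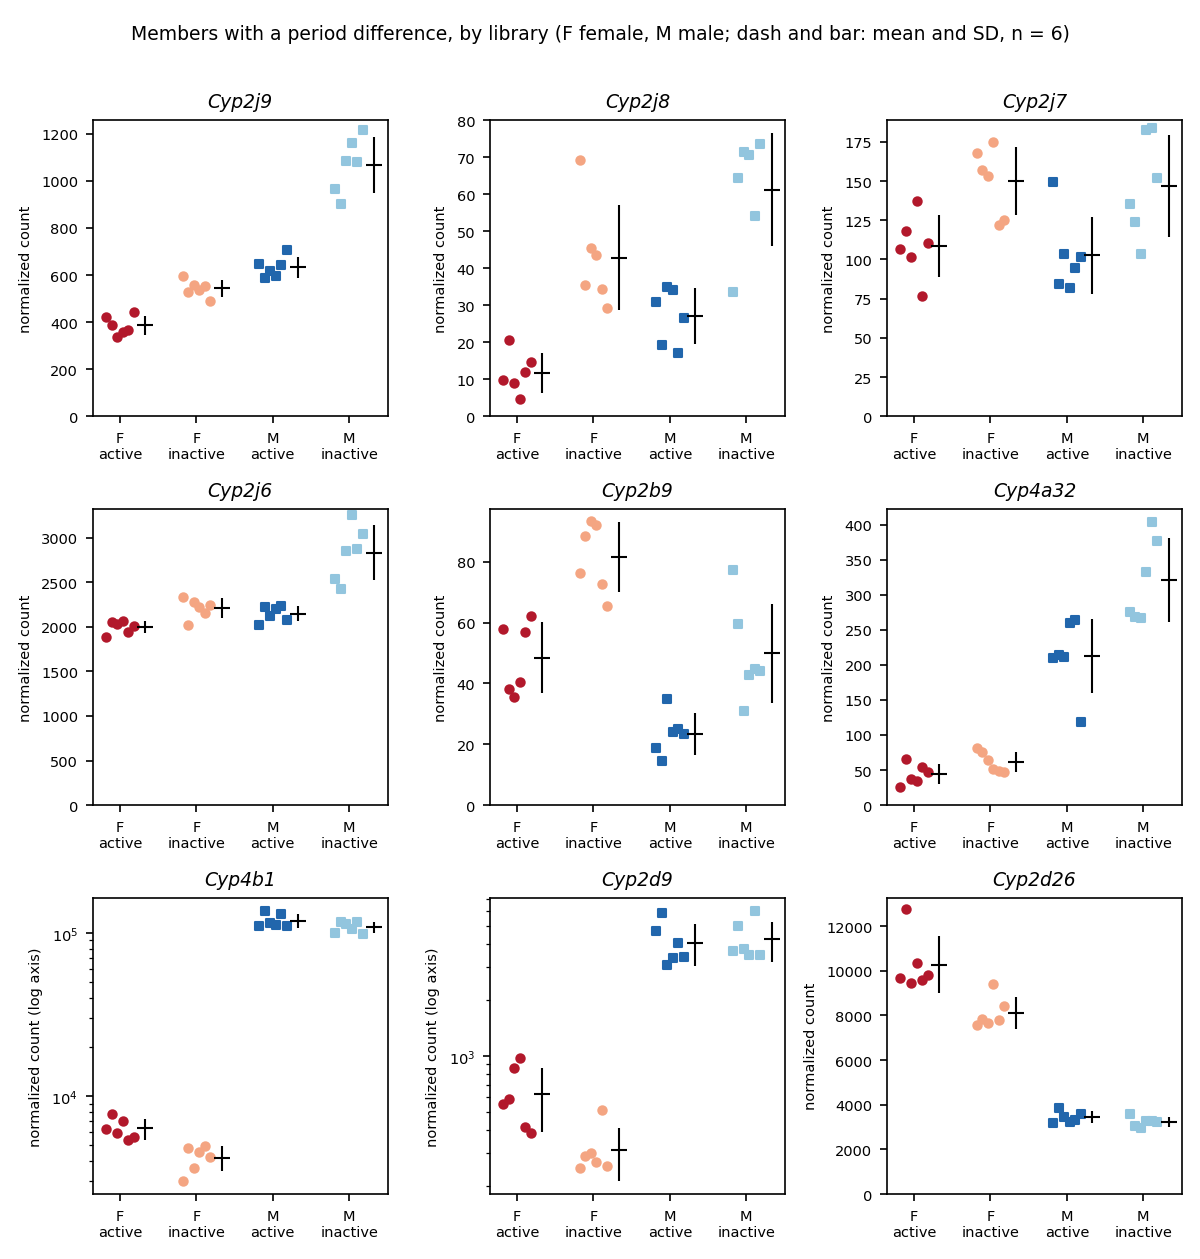
Normalized counts (y, log axis for Cyp4b1 and Cyp2d9) of 9 members called between the periods, by library in the 4 groups (x), with mean and SD beside each group of 6. Cyp2j9 is lower in each active library than in any inactive library of the same sex, and Cyp4b1, Cyp2d9 and Cyp2d26 are separated by sex far more than by period.

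The 4 members higher in active females were Cyp4b1, Cyp2d9, Cyp2d26 and Cyp27a1. Cyp4b1 stood at 6325 ± 919.8 in active against 4193 ± 739 in inactive females, log2 fold 0.60 ± 0.10 (adjusted p = 2.22e-04 by limma), with no overlap. In males it was 0.13 ± 0.10 (adjusted p = 0.423). Cyp2d9 stood at 626 ± 238 against 312 ± 98.8, log2 fold 0.97 ± 0.23 (adjusted p = 0.00686), and in males -0.06 ± 0.23 (adjusted p = 0.895). Of its 50-base stretches, 21.8% occur in other genes. Cyp2d26 was higher by 0.34 ± 0.07 in females (adjusted p = 6.41e-04) and Cyp27a1 by 0.22 ± 0.07 (adjusted p = 0.0391), the second lost with TMM scaling, equal totals, no filter or any of 7 libraries left out. Of these 4, Cyp4b1, Cyp2d9 and Cyp27a1 stood higher in males and Cyp2d26 in females.

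The remaining period calls were Cyp4f13, Cyp46a1, Cyp4a32 and Cyp2u1. Cyp4f13 was lower in active females with a log2 fold of -0.33 ± 0.08 (adjusted p = 0.00304 by limma) and in males 0.01 ± 0.08. Cyp46a1 was lower in active females with a log2 fold of -0.63 ± 0.22 (adjusted p = 0.0474 by limma). That call was lost without any of 15 libraries, with no filter, upper quartile scaling or only the 2 groups, and by edgeR and DESeq2. In males Cyp4a32 was lower in the active period with a log2 fold of -0.61 ± 0.20 (adjusted p = 0.0362 by limma), lost without any of 6 libraries and with no filter. Cyp2u1, a fatty acid hydroxylase, was higher in active males by 0.32 ± 0.11 (adjusted p = 0.0491 by limma). Its call was lost without any of 18 libraries, with no filter, upper quartile scaling, equal totals or only the 2 groups, and by edgeR. In females Cyp2u1 had the same fold, 0.32 ± 0.11, and just missed the threshold (adjusted p = 0.0539). Cyp2b10 had 10 reads in active and 0 in inactive females. The active mean was 1.81 times the limit that 0 allows. That ratio leaves out the counting error of the 10 reads and so sets no lower bound on the fold. The gene was not called by limma (adjusted p = 0.131) but was called by edgeR and DESeq2, which take each read as 1 count. Without active female library 30 both groups were within the limit that 0 allows.

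The change with the period differed between the sexes for no member by limma, against 1.41% (higher) and 1.3% (lower) of all genes. At an unadjusted p under 0.05 there were 9 of 43, where 18.7% of all genes were. By edgeR there were 0 calls and by DESeq2 3, Cyp4b1 (-0.46, adjusted p = 0.0246), Cyp2d9 (-1.06, adjusted p = 0.0347) and Cyp4f13 (0.35, adjusted p = 0.0486), where a negative value means a smaller active excess in males. By limma the same 3 had adjusted p-values of 0.0794, 0.093 and 0.0843. Leaving out male library 25 (active), 26 (active) or 32 (inactive) each gave 1 call, Cyp4f13, Cyp2c68 and Cyp2j6.

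Most genes of electron donors for P450 enzymes were higher in males. Of 10 tested electron donors 8 were higher and 1 lower in males in the active period, against 30.1% and 30.5% of all genes, and 6 higher and 1 lower in the inactive period, against 27.9% and 27.8%. With equal totals these counts were 5 and 2, and 5 and 3. Cytochrome b5 (Cyb5a) was at 13238 ± 932 and 12963 ± 905 in females and 39473 ± 3877 and 35538 ± 1758 in males, log2 folds 1.57 ± 0.06 and 1.46 ± 0.06 (adjusted p = 8.57e-20 and 5.60e-19 by limma). P450 oxidoreductase (Por) was at 5084 ± 960.4 and 6986 ± 781 in active and inactive females and 9315 ± 1128 and 9799 ± 666 in males, log2 folds 0.89 ± 0.10 and 0.49 ± 0.10. Between the periods 4 donors fell in active females, Por (-0.47 ± 0.10, adjusted p = 0.00199), Cyb5r1 (-0.29 ± 0.06), Fdxr (-0.44 ± 0.10) and Fdx1 (-0.19 ± 0.06), and none rose, against 6.98% and 7.97% of all genes. In males 1 rose (Cyb5r3, 0.15 ± 0.05) and none fell, against 8.43% and 6.95%. The difference between these changes passed for Cyb5r1, Cyb5r3 and Fdx1 (0.37, 0.29 and 0.31), for 1 gene of the list with upper quartile scaling.

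Most genes of haem synthesis and breakdown, which make the cofactor or break it down, were also higher in males. Of 12 genes 10 were higher in males in the active period and none lower, and 9 higher and 1 lower (Ppox) in the inactive period, beside the same shares of all genes. With equal totals 7 were higher and 1 lower, and 6 higher and 2 lower. Cpox, an enzyme of haem synthesis, had log2 folds of 1.18 ± 0.07 and 1.16 ± 0.07 (adjusted p = 1.84e-15 and 3.71e-15 by limma), and haem oxygenase Hmox1 0.75 ± 0.19 and 1.25 ± 0.19. In active females Hmox1 (0.97 ± 0.19) and Uros (0.24 ± 0.07) rose and Blvra (-0.32 ± 0.06), Ppox (-0.24 ± 0.05) and Alad (-0.26 ± 0.07) fell, and in active males Fech fell (-0.19 ± 0.04).

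Among 21 tested regulators of P450 genes, 7 were higher and 7 lower in males in the active period and 7 and 6 in the inactive, shares near those of all genes, which became 6 and 9 in both periods with equal totals. The oestrogen receptor Esr1 (1.35 ± 0.11 in the active period), the bile acid receptor Nr1h4 (1.21 ± 0.12 and 1.40 ± 0.12), Hnf4a (0.72 ± 0.05 and 0.50 ± 0.05) and Rxra (0.49 ± 0.05 and 0.51 ± 0.05) were higher. The coactivator Ppargc1a (-0.70 ± 0.06 and -0.45 ± 0.06), the pregnane receptor Nr1i2 (-0.96 ± 0.13 and -0.76 ± 0.13) and the aryl hydrocarbon receptor Ahr (-0.53 ± 0.10 and -0.44 ± 0.10) were lower. Between the periods Ppara, the receptor known to drive the Cyp4a genes, fell in the active period in both sexes, by 0.54 ± 0.11 in females (adjusted p = 8.03e-04) and 0.57 ± 0.11 in males (adjusted p = 8.43e-04). Of the 4 Cyp4a members, Cyp4a10 (0.25 in females and -0.06 in males), Cyp4a14 (0.04 and -0.12) and Cyp4a31 (0.09 and 0.08) passed in neither sex, and Cyp4a32 did not pass in females (-0.49) and was lower in active males (-0.61, adjusted p = 0.0362). In active males Hnf4a (0.24 ± 0.05) and Bcl6 (1.32 ± 0.39) rose and Nr1h4 (-0.47 ± 0.12) fell.

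Of 10 eicosanoid and epoxide genes tested, 1 was higher and 6 lower in males in the active period, against 30.1% and 30.5% of all genes, and 1 higher and 8 lower in the inactive, against 27.9% and 27.8%. With equal totals the active counts were 1 and 9. The higher gene was Ephx2, whose soluble epoxide hydrolase breaks down the products of the epoxygenases. It was at 7118 ± 719 and 6797 ± 127 in females and 28871 ± 3029.8 and 26341 ± 1179 in males, log2 folds 2.02 ± 0.06 and 1.95 ± 0.06 (adjusted p = 1.97e-22 and 5.68e-22 by limma). Prostaglandin dehydrogenase Hpgd (-1.11 ± 0.09 and -1.34 ± 0.09), Tbxas1 (-1.18 ± 0.10 and -0.52 ± 0.10) and Pla2g4a (-0.68 ± 0.11 and -0.73 ± 0.11) were lower. Thromboxane synthase (Tbxas1), itself a P450 protein under another name, fell in active males by 0.75 ± 0.10 (adjusted p = 5.52e-06), and its change differed between the sexes (-0.66 ± 0.14, adjusted p = 0.00998).

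Markers of kidney cell types moved with sex beside these results. In whole kidney, fewer cells of a type and less RNA per cell cannot be told apart. The summed level of 6 markers of the third proximal tubule segment ran from 20629 to 35372 over the female libraries and from 115038 to 155573 in the male libraries, with 4 of 6 higher and 1 lower (Slc7a12) in males in each period. Slc7a13, a transporter of that segment, was at 58.7 ± 26.8 and 69.1 ± 35.3 in females and 48631 ± 3450.3 and 49772 ± 4575 in males. Of 6 markers of the first segments 2 were higher and 4 lower in males in each period, with summed levels of 164674 to 220980.0 over the female and 226181 to 263266 over the male libraries. Summed levels of all marker lists are on the deposited scaling, under which males had higher totals. The marker lists are not given with equal totals, so the small gap between the sexes in the first segments is to be read against that difference in totals. All 3 podocyte and all 3 endothelial markers, and 2 of 3 of the distal convoluted tubule, were lower in males in each period. So were 3 and 2 of 3 of the thick ascending limb, 2 and 1 of 4 of the collecting duct (1 higher in the active period) and 1 and 3 of 3 of macrophages. Their part in the sex differences of the P450 genes was not tested.

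Other tissues that express P450 genes were looked for. The 5 adrenal cortex markers summed to group means of 237 to 338 normalized counts. Of these, Star was lower in males (-0.33 ± 0.12 and -0.33 ± 0.12). Akr1b7 and Mrap, with means over all libraries of 72.2 and 16.4, were called in no comparison. Mc2r and Hsd3b1 stood at group means of 1.76 to 7.70 and 0.745 to 4.05, and the adrenal genes Cyp11b1 and Cyp11b2 had no read. Of 5 hepatocyte markers 2 were higher (Ttr and Serpina1a) and 2 lower (Alb and Fgb) in males in each period, and their summed level ran from 1425 to 2213 over the female and 3599.7 to 5951 over the male libraries. The part of these markers in the P450 results was not tested. Of P450 genes known from liver, some were near 0, with means over all libraries of 3.83 for Cyp3a11, 0.895 for Cyp1a2 and 0.486 for Cyp2c29, and others were abundant, with 44511 for Cyp2e1, 13791 for Cyp2a4 and 2310.5 for Cyp2d9. No adipocyte marker passed in any comparison, and their summed level ran from 1455 to 6289. Between the periods, the cell type lists had at most 1 call each in either sex.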

How the data were processed

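The deposited table gave signal for 56748 gene identifiers in 24 libraries. Per the labels, and as the values show, the authors had scaled gene counts with 1 factor for each library. The submitters' processing notes name the build GRCm39, DESeq2 1.28.1, featureCounts, Subread 2.0.6 and Trim Galore 0.6.10. Settings, strand included, are not given in the sources used, so reads of overlapping and antisense genes cannot be told apart. All values were whole within 0.05 after division by the step of their library, so reads were recovered and used for the count tests. Low counts were mostly even, so a read pair may count as 2 reads, and count tests take these as separate.

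Symbols came from a GRCm38 annotation (52073 identifiers matched, 99.2% of signal), as did exon lengths and the share of 50-base stretches that other genes hold. The members and lists were chosen with earlier results of these data known.

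Genes with a mean of at least 10 (17333) were taken as log2(value + 1), so folds of low genes are understated, and fitted with limma 3.58.1 in R 4.3.3, with trended and robust variance, 4 group means over all 24 libraries and Benjamini-Hochberg adjustment over all genes per comparison. The fit was tested on simulated data. Alternatives were offsets of 0.5 and 5, no filter, TMM, upper quartile and equal-totals scaling, only the 2 groups compared, each library left out, a replicate block, edgeR 4.0.16 and DESeq2 1.42.0. Named in full were members called between periods (at most 8 per direction), the 8 largest sex folds per direction where the higher group averaged 50 or more, and the 8 most abundant per kilobase. Of list genes, at most 4 per comparison were named, smallest p first, and some list genes are not reported here. Nr1i2, Ahr, Uros, the Cyp4a pattern in males, the scalings of the lists, the sum without 3 genes and, for Cyp2b10, the limits over read pairs in place of reads and the fold without library 30 were chosen after their values were seen.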

Additional observations from a re-analysis of the deposited data

Results flagged for a closer look

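In 14 of 172 groups of 6 libraries (8.14%), the highest or lowest library of a member stood apart from the other 5, by the 95% limit of Dixon's test. Chance gives about 1 in 20 groups. Of these 10 were high and 4 low. Female active library 26 was high for Cyp2d26 (12781) and Cyp2d12 (5679.9), library 28 for Cyp2a5 (6312) and library 30 for Cyp2b10 (5.83). Female inactive library 34 was high for Cyp4a10 (20115) and low for Cyp1b1 (1536), library 31 was low for Cyp46a1 (70.8), library 33 high for Cyp2c68 (64.5) and library 35 high for Cyp2d9 (509.7). Male active library 25 was high for Cyp2j7 (149), library 28 for Cyp26a1 (35), and library 30 low for Cyp4a32 (118). Male inactive library 34 was low for Cyp2u1 (154) and library 35 high for Cyp2c23 (1039). No library stood apart for more than 2 members.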

How the results depend on the processing

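Of 77 member calls (limma, adjusted p under 0.05), 60 held under every alternative run and 17 were lost under at least 1, by comparison 3 of 12 (period in females), 3 of 7 (period in males), 3 of 29 (sex, active) and 8 of 29 (sex, inactive). No called result changed sign. In the other direction, 36 uncalled member results were called, with the same sign, under at least 1 alternative. Among them were the sex differences of Cyp4a31 (adjusted p = 0.0235 and 0.0259 by DESeq2 in the active and inactive period) and Cyp2u1 (0.0357 and 0.0458). Of the uncalled, Cyp2j6 for sex in the active period went from 0.11 to -0.17 with equal totals, which lowers all male values together. The count of members called between periods in males went from 7 to 4 with no filter, where more genes were tested, and was 4 to 10 with single libraries left out, with 4 without inactive male 36. The period by sex count went from 0 to 3 with DESeq2 and to 1 (Cyp4b1) with the replicate block, and was 0 to 1 with single libraries left out. The cause of these changes was not tested. Whether the numbers in the titles pair the libraries could not be decided. Same-numbered males and females had correlations of deviations from -0.104 to 0.124 over 12 pairs, 1 over 0.1. Low correlations do not exclude pairing, and 9 of 24 libraries correlated best with their own number. No chance level was set for that count. With the replicate block the sex counts were 31 and 30 against 29 and 29, and the period comparisons could not be estimated. The comparison of only 2 groups has no form of its own for period by sex. Depth limits the members under about 50 normalized counts, where a library holds few reads of the gene.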
